A study of Mus musculus with 8 samples.

Results

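Messenger RNA levels of 41 core autophagy genes were compared in brains of diabetic mice on a ketogenic and on a normal diet. The genes were taken by symbol from the deposited tables, which list 17983 symbols. All 41 were present, and all 41 passed edgeR's filter on low counts. Both groups were male db/db mice, which carry a leptin receptor mutation and develop obesity and type 2 diabetes. No lean or wild-type group was part of the comparison, so all values belong to the diabetic background. The ketogenic diet, rich in fat with little carbohydrate, or the normal diet (called control here) was given from 9 weeks of age. Brains were taken whole at 6 months, and 4 libraries were sequenced per diet.

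Autophagy encloses cytoplasm, protein aggregates or organelles in a double membrane, the autophagosome, and delivers them to the lysosome for breakdown. The Ulk1 kinase complex starts the process, a lipid kinase complex marks the membrane, and Atg9 and Atg2 supply it with lipid. A pair of ubiquitin-like conjugation reactions then attaches Atg8 family proteins to the membrane, where cargo receptors bind them. Neurons depend on this route because they do not divide and cannot dilute damaged proteins and organelles. Much of its control lies in phosphorylation and protein turnover, which messenger RNA levels do not show.

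Most of the autophagy genes differed little between diets. Of the 41, 2 were higher in ketogenic brains, 0 were lower and 39 did not pass (edgeR quasi-likelihood test, Benjamini-Hochberg adjusted p under 0.05 over all 14895 tested genes). The 2 were Wipi2 and Atg16l1, by 1.15-fold and 1.22-fold. They are 4.88% of the members, where 6.52% of all tested genes passed, 3.30% higher and 3.22% lower. The members' share was near that background and is no result about the group. At an unadjusted p under 0.05 there were 6 members higher and 5 lower, or 26.8%, against 24.6% of all tested genes. The control and ketogenic libraries did not overlap for 7 members, 3 higher and 4 lower, or 17.1%, against 13.7% of all tested genes. With the DESeq2 Wald test 3 members were higher and 1 lower, and that test called 12.8% of all genes it gave an adjusted p. With limma on log2(FPKM + 1) or log2(FPKM + 0.1) none of the members passed in either direction, where 0.356% and 0.489% of all genes did.

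The differences were small in both directions. The median log2 change of the 41 genes was 0.02, with 22 above and 19 below 0, and that of all tested genes was 0.00. The median size of the change, without its sign, was 0.10 in log2 for the members and 0.13 for all tested genes. It was 0.11 for the 11722 tested genes within the members' range of mean level, of which 7.93% passed. The largest positive value was 0.29 and the lowest -0.19, so 0 of the 41 reached 1.25-fold. For 34 of the 41 genes the 95% interval of the change, from edgeR's estimate and its standard error (SE), lay wholly within 1.25-fold of no change. The 7 others have intervals that also allow larger changes.

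**Figure D1:**
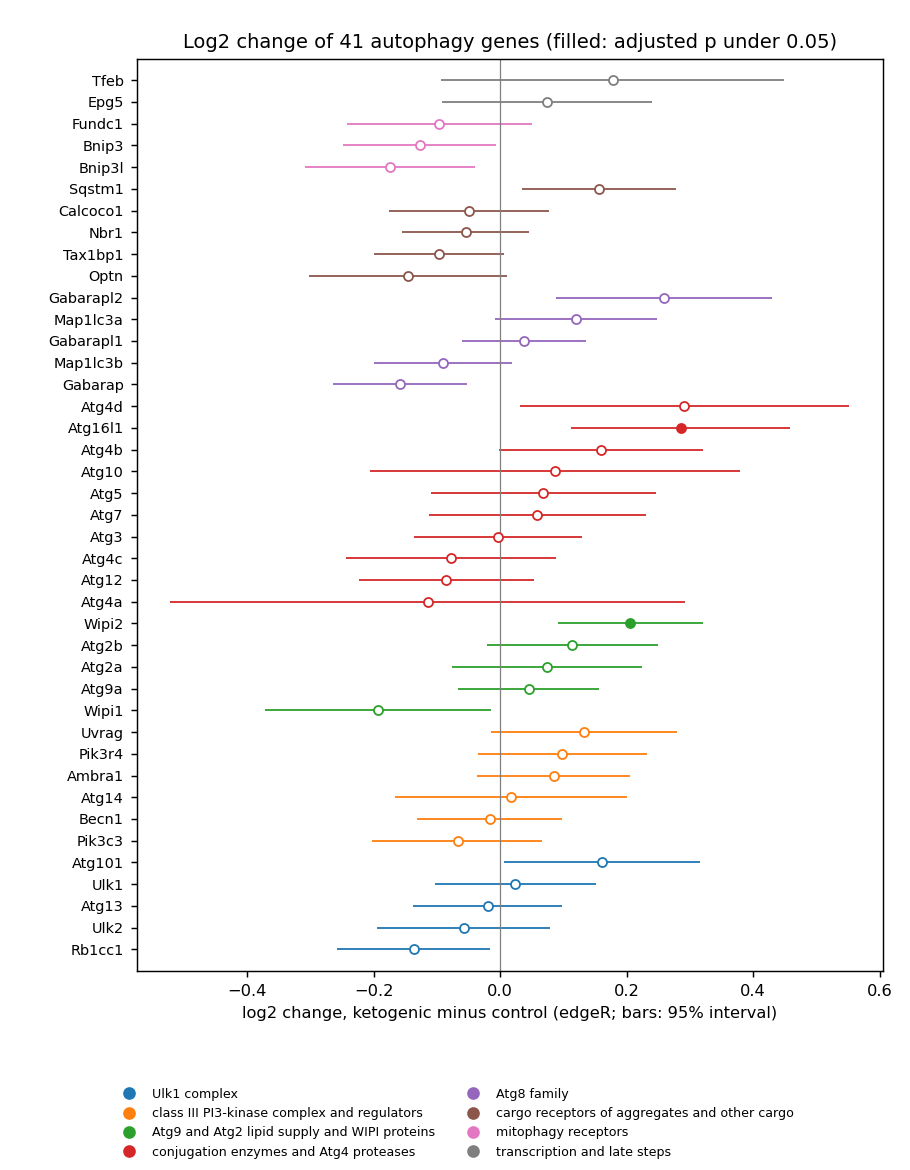
Log2 change of each autophagy gene (ketogenic minus control, horizontal axis) with its 95% interval, coloured by role. The filled points, Wipi2 and Atg16l1, had an adjusted p under 0.05. The points run from -0.19 for Wipi1 to 0.29 for Atg4d.

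The libraries held between 34450860 and 40233361 counts each, and the 41 genes together took between 0.42% and 0.44% of them. The lowest count of a member in any library was 109, for the protease gene Atg4a, and the highest was 30343, for Gabarapl1. On the first principal component of log2 CPM (counts scaled to library size) ketogenic replicate 3 lay at 34.4 and the other ketogenic libraries between 2.90 and 11.2. The control libraries lay between -22.7 and -5.94, with control replicate 4 nearest to the ketogenic libraries. The labels do not say that the libraries came from separate mice, so the p-values measure the spread between these libraries, which may be technical. Markers of neurons, astrocytes, oligodendrocytes and microglia were all present, with 0 of them at 0 counts. Of 8 astrocyte markers 4 were lower in ketogenic brains (Gfap, Aqp4, Aldh1l1 and Gja1). The summed level of all 8 was 4823 to 5668 CPM with the normal diet and 4687 to 5316 CPM with the ketogenic diet. Their mean log2 CPM did not overlap, at 8.26 to 8.46 with the normal and 8.11 to 8.24 with the ketogenic diet. Of 5 blood markers 4 were higher. All 5 together stood at 15.3 to 52.4 CPM with the normal diet and 69.4 to 114 CPM in ketogenic libraries. None of 10 neuron, 8 oligodendrocyte and 6 choroid plexus and ependyma markers passed. The 6 choroid plexus and ependyma markers summed to 599.8 to 1150 CPM with the normal and 1077 to 1377 CPM with the ketogenic diet, with overlap. Of 8 microglia markers 1 was higher (Tmem119), and of 8 endothelial and pericyte markers 1 was lower (Rgs5). The part of these differences in the autophagy values was not tested. In whole brain, fewer cells of a type and less RNA per cell cannot be told apart.

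Promoter sequence was available in RefSeq (GRCm38.p6) for 33 of the 41 genes, as windows from 250 bases before to 50 bases after a RefSeq start, which lies inside the span that GENCODE M21 gives the gene for all genes shown here but Atg5. The Wipi2 window is shown because Wipi2 rose, and the Wipi1 window because that paralog is described beside it. Atg16l1, the other gene that rose, had no window and was not searched. GENCODE M21 begins Wipi2 (plus strand) at 142627698 and Wipi1 (minus strand) at 109611967, upstream of these windows. The window of Wipi2 lies at chr5:142629334-142629633 on the plus strand, and that of Wipi1 at chr11:109611340-109611639 on the minus strand. Each is written 5′ to 3′ on the gene's own strand. Capitals would mark CACGTG, and neither holds it.
Wipi2: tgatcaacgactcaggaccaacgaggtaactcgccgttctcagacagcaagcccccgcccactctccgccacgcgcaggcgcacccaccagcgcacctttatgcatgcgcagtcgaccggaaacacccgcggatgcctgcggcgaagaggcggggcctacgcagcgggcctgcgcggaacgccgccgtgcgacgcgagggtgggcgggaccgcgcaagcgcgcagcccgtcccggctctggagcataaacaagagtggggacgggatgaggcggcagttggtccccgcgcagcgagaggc
Wipi1: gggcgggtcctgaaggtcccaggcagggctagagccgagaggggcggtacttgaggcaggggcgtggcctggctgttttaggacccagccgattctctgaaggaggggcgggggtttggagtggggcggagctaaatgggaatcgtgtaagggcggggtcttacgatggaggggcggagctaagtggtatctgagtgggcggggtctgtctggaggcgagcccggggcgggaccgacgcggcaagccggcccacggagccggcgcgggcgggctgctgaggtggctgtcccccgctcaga
Both windows are rich in G and C, at 69.7% for Wipi2 and 69.0% for Wipi1, where the median of the members' 39 windows was 59.3%.

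The motif CACGTG is the core of the element bound by Tfeb, a transcription factor known for inducing autophagy and lysosome genes. It reads the same on both strands. It was found in the windows of 5 of the 33 genes (15.2%), and in those of 8.09% of all 27025 genes with a 300-base window. That wider set includes genes not tested here, and the difference between the shares was not tested. The 5 genes were Atg7, Bnip3, Atg5, Atg14 and Atg3, and Atg3 held it at 2 places. Of these, the Atg7 window (chr6:114670846-114671145) lies far inside the GENCODE span of the gene, which begins at 114643097. It may therefore belong to a later start of Atg7. The Atg14 window (chr14:47568385-47568684, minus strand) is also downstream of the GENCODE start, at 47570649. Their matches are shown with 12 bases on each side and the motif in capitals, to let their positions be compared.
Atg7: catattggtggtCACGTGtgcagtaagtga
Bnip3: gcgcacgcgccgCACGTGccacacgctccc
Atg5: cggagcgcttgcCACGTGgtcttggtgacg
Atg14: aaaacaaaatccCACGTGactggccctgag
Atg3, farther from the start: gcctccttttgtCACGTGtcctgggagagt
Atg3, nearer to the start: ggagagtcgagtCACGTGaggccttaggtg
The first base of the motif lay 132, 108, 14 and 1 bases before the RefSeq start in Atg7, Bnip3, Atg5 and Atg14, and 94 and 71 bases before it in Atg3. The pieces come from chr6:114670952-114670981 (Atg7, plus strand), chr7:138909597-138909626 (Bnip3, minus strand), chr10:44268313-44268342 (Atg5, plus strand), chr14:47568418-47568447 (Atg14, minus strand) and, for Atg3 on the plus strand, chr16:45158723-45158752 and chr16:45158746-45158775. None of these 5 genes passed the test, and their log2 changes ran from -0.13 for Bnip3 to 0.07 for Atg5. A match of letters is a description and not evidence of binding.

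The expression level per length, in FPKM (fragments per kilobase of gene, scaled to library size), covered a wide range and was led by the Atg8 family and the cargo receptor Sqstm1. Gabarapl1 was highest at a mean of 411 FPKM over the 8 libraries, with a range of 394 to 425, followed by Gabarap at 187 (169 to 203) and Map1lc3a at 114 (105 to 126). Sqstm1, Map1lc3b and Gabarapl2 came next at 92.7, 88.0 and 81.5 FPKM, and their ranges overlapped. Bnip3 was the seventh and last gene over 50 FPKM, at 63.4. Below 10 FPKM were 14 genes, and the lowest were Atg10 at 3.72, Atg4a at 1.29 and Tfeb at 0.867. In this order 10 of 40 neighbouring pairs had ranges over the 8 libraries that did not overlap, among them the top 3 genes and the lowest 3. FPKM depends on the gene length used by the authors, which was fixed per gene.

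**Figure D2:**
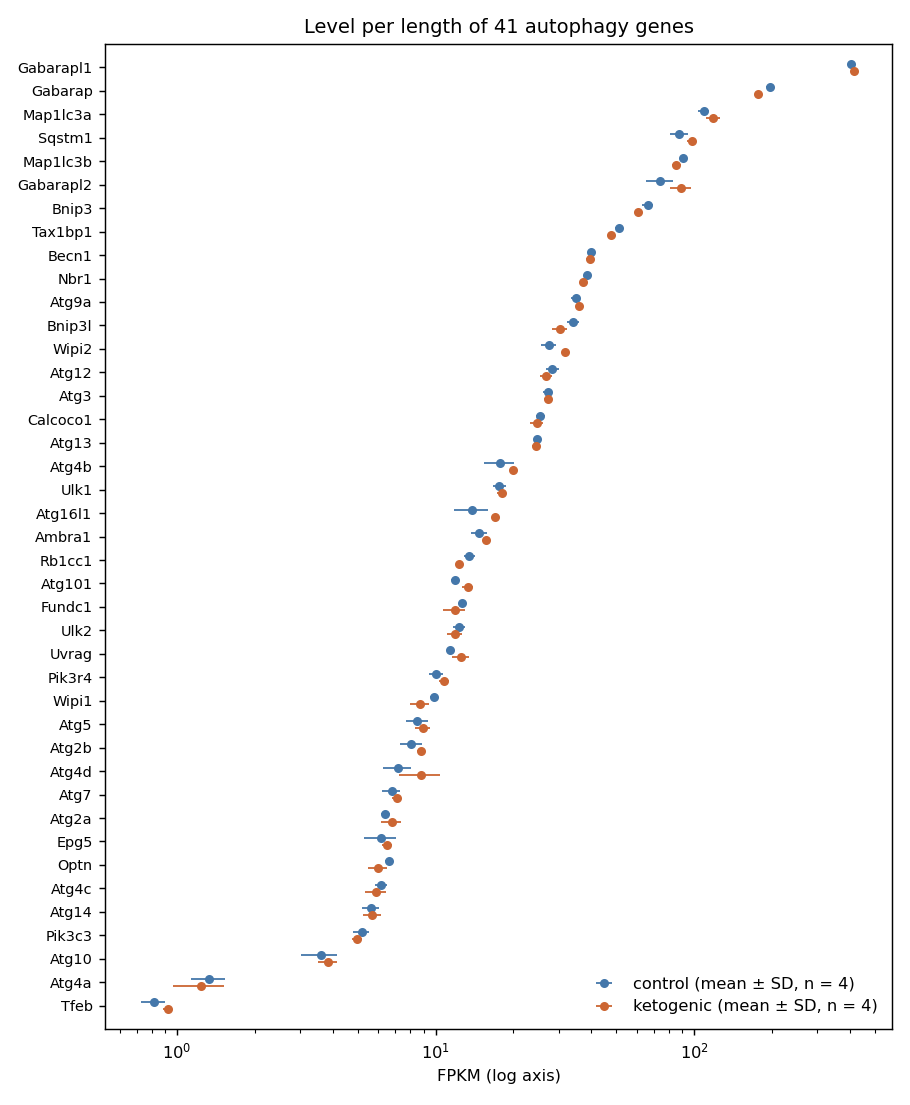
Level of each autophagy gene in FPKM (log axis), as mean ± SD over 4 control and 4 ketogenic libraries, ordered by the mean over all 8. Levels run from 0.867 for Tfeb to 411 for Gabarapl1, and the diets lie close together beside that range.

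The Ulk1 complex, which receives nutrient signals and starts autophagosome formation, had 0 of 5 members past the threshold. At an unadjusted p under 0.05, which 24.6% of all tested genes had, 1 was higher and 1 lower. Rb1cc1, the scaffold also called Fip200, had the smallest p of the complex. It stood at 117, 114, 116 and 103 CPM in control replicates 1 to 4 and at 104, 96.5, 107 and 100.9 CPM in ketogenic replicates 1 to 4. The fourth control library lay among the ketogenic ones and the groups overlapped. The log2 change was -0.14 ± 0.06 (SE, edgeR adjusted p = 0.15), and 0.00 once each library's trend on GC content and transcript length was removed. Without control replicate 4 it was -0.17 (adjusted p = 0.0467), where 12.7% of all tested genes passed. Rb1cc1 passed in only that 1 of 8 single removals, with an adjusted p of up to 0.345 in the others. Atg101, which stabilises Atg13, stood at 21.9 to 23.3 CPM with the normal diet and 23.4 to 26.6 CPM in ketogenic libraries. Its groups did not overlap, by a narrow margin, and its log2 change of 0.16 did not pass (adjusted p = 0.188). The kinase genes Ulk1 and Ulk2 and the adaptor gene Atg13 had log2 changes of 0.02, -0.06 and -0.02. Their 95% intervals together ran from -0.19 to 0.15.

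The class III phosphatidylinositol 3-kinase complex marks the forming membrane with a lipid that draws in later factors. None of its 6 genes passed with edgeR's test, 0 had an unadjusted p under 0.05, and 0 passed with DESeq2 or limma. Uvrag, a Beclin 1 partner of the endosomal form of the complex, stood at 40.7, 41.2, 40.8 and 41.7 CPM in control libraries. In ketogenic libraries it stood at 42.3, 41.9, 50.7 and 45.3 CPM. The control values were tight, the groups did not overlap, and ketogenic replicate 3 was far above the other libraries. For Uvrag the log2 change was 0.13 ± 0.07 (adjusted p = 0.255), or 0.08 without ketogenic replicate 3 (adjusted p = 0.56). Of the 50-base stretches of Uvrag 17.4% also occur in other annotated genes, among them Gm45187, which overlaps it on the other strand. Becn1, which encodes Beclin 1, was among the steadiest members, at 92.3 to 98.6 CPM with the normal diet and 90.9 to 102 CPM in ketogenic libraries (log2 change -0.02, 95% interval -0.13 to 0.10). It shares 36.8% of its 50-base stretches with other annotated transcripts, among them those of Cntd1, which overlaps it on the other strand. The catalytic subunit gene Pik3c3, the pseudokinase gene Pik3r4, the autophagy-specific adaptor gene Atg14 and the regulator gene Ambra1 had log2 changes from -0.07 to 0.10.

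Of the genes for lipid supply and the WIPI proteins, which bind the marked membrane, 1 of 5 rose, where 3.30% of all tested genes did. Wipi2, which recruits the Atg16l1 complex to the membrane, stood at 104, 109, 107 and 118 CPM in control replicates 1 to 4. In the ketogenic libraries it stood at 123, 125, 128 and 129 CPM. All ketogenic values lay above all control values, and control replicate 4 was nearest to them. The mean went from 109 ± 6.25 to 126 ± 2.96 CPM (SD, n = 4 each). In log2 the change was 0.21 with an SE of 0.05 (adjusted p = 0.0362, edgeR). The gene lies at chr5:142627698-142670588 on the plus strand (GENCODE M21, GRCm38), with no other annotated gene over it. The call was lost without any 1 library other than control replicate 4 (adjusted p of up to 0.115). It was also lost after removal of the GC and length trend (log2 change 0.18, adjusted p = 0.1).

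Wipi1, its paralog, went the other way without passing. It stood at 18.8, 18.5, 17.4 and 17.3 CPM with the normal diet and 14.8, 16.2, 14.9 and 16.9 CPM in ketogenic libraries. The groups did not overlap, and the log2 change was -0.19 ± 0.08 (edgeR adjusted p = 0.172). As a share of the summed FPKM of both genes, Wipi1 took 26.5% ± 1.71 in control and 21.4% ± 0.95 in ketogenic libraries (SD, n = 4). The share was 24.3% to 28.4% in control and 20.4% to 22.3% in ketogenic libraries, with no overlap. This share was looked at after the values of both genes were seen and was not tested. Atg9a, whose product moves lipid between membrane leaflets, and the lipid transfer protein genes Atg2a and Atg2b gave log2 values of 0.05, 0.07 and 0.11 and did not pass. Of the 50-base stretches of Atg9a 30.5% also occur in other annotated transcripts.

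**Figure D3:**
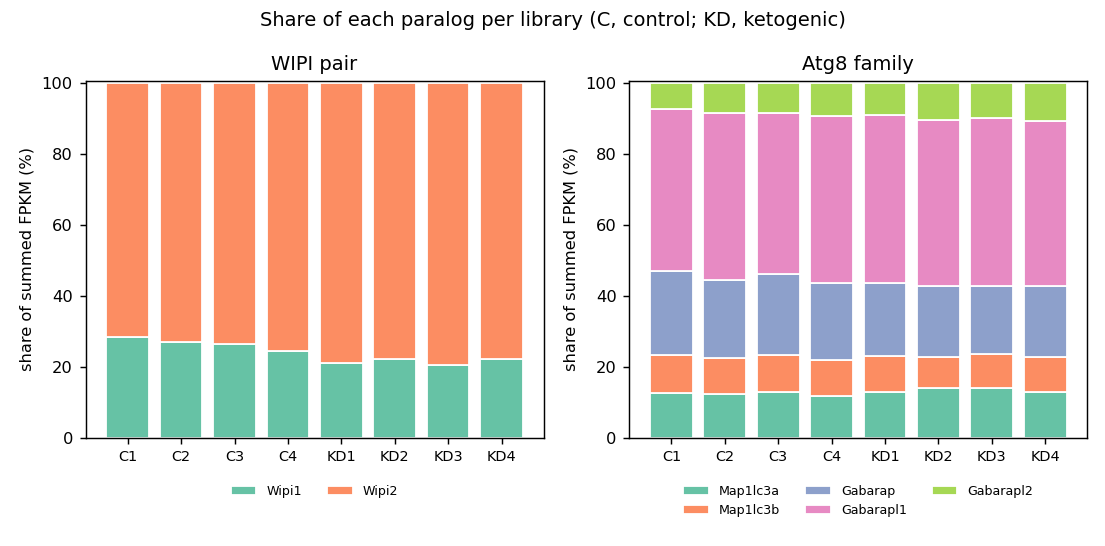
Share of each paralog in the summed FPKM of the WIPI pair (left) and of the Atg8 family (right) in each of the 8 libraries. Wipi1 and Gabarap take a smaller share in every ketogenic library than in any control library.

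The conjugation enzymes and Atg4 proteases attach and release the Atg8 proteins, and 1 of these 10 genes rose, against 3.30% of all tested genes. Atg16l1, which places the conjugation machinery on the membrane, stood at 39.8, 45.9, 43.4 and 54.6 CPM in control replicates 1 to 4. It stood at 54.8, 54.3, 58.2 and 56.5 CPM in the ketogenic libraries. Control replicate 4 was above ketogenic replicate 2, so the groups overlapped, and the other 3 control libraries lay well below. Means were 45.9 ± 6.29 and 56.0 ± 1.76 CPM (SD, n = 4 each). In log2 the change was 0.29 with an SE of 0.08 (adjusted p = 0.0479, edgeR). The gene lies at chr1:87755870-87792428 on the plus strand, with 2 small noncoding RNA genes inside it on the same strand (GENCODE M21). As with Wipi2, the call held only without control replicate 4 (adjusted p = 0.00423) among the 8 libraries left out in turn, and was otherwise lost with adjusted p of up to 0.158. It was also lost with library size alone as the scaling (0.0523), and held after removal of the GC and length trend (log2 change 0.35, adjusted p = 0.0472).

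Control replicate 4 also stood apart in Atg4b, the main protease that trims and recycles Atg8 proteins, named after its values were seen. This library was at 70.1 CPM, the other control libraries at 54.2 to 55.6 CPM and the ketogenic libraries at 63.7 to 67.9 CPM. The log2 change was 0.16 ± 0.08 (adjusted p = 0.209), and without that library 0.26 (adjusted p = 0.0108), where 12.7% of all tested genes passed. No other single removal gave a call for Atg4b (adjusted p of up to 0.44). Atg4d had the largest positive value of the 41 genes and did not pass. It stood at 14.2 to 18.1 CPM with the normal diet and at 14.9, 17.8, 21.9 and 22.1 CPM in ketogenic libraries, for a log2 change of 0.29 ± 0.12 (adjusted p = 0.154). That value was 0.07 without ketogenic replicates 3 and 4 together and 0.22 without replicate 4 alone. The Atg4d locus overlaps the coding gene Kri1 on the other strand, with 14.6% of its 50-base stretches shared. Of the summed FPKM of the 4 protease genes, Atg4b took 52.4% to 60.3% in the 8 libraries and Atg4a 2.96% to 4.89%. The Atg4a count is uncertain, since 51.2% of its 50-base stretches also occur in other transcripts, among them Atg4a-ps. The E1-like gene Atg7, the E2-like genes Atg3 and Atg10, and Atg5 and Atg12, whose products are joined to each other, had log2 changes from -0.08 to 0.09. Atg3 had the value nearest to 0 (0.00, 95% interval -0.14 to 0.13).

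**Figure D4:**
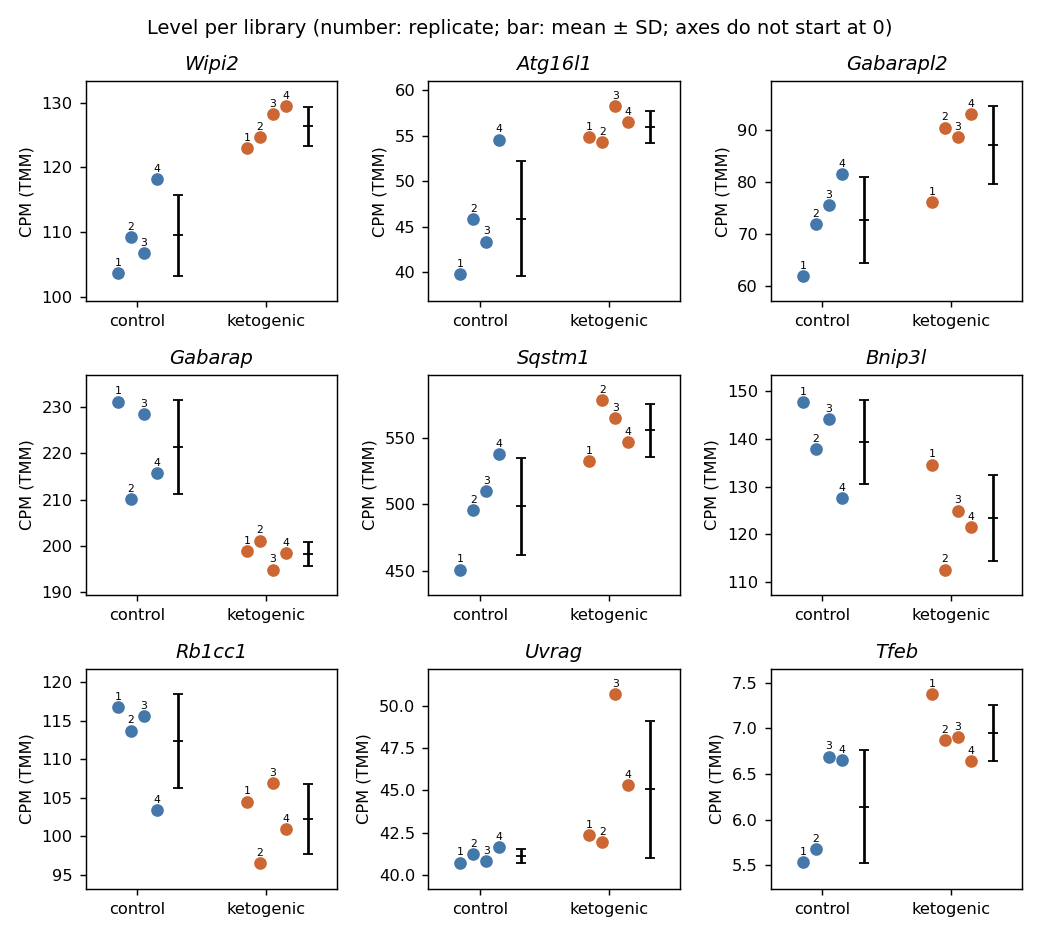
CPM of 9 autophagy genes in each library (vertical axes do not start at 0), with the replicate number over each point and mean ± SD beside each group. Control replicate 4 is the control library closest to the ketogenic ones for Wipi2, Atg16l1, Gabarapl2, Sqstm1, Bnip3l, Rb1cc1 and Uvrag.

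The Atg8 family, ubiquitin-like proteins that coat the autophagosome and bind cargo receptors, had 0 of 5 members past the threshold with edgeR. At an unadjusted p under 0.05, which 24.6% of all tested genes had, there was 1 higher and 1 lower. With the DESeq2 Wald test the same 2 genes passed, Gabarapl2 higher and Gabarap lower, among the 12.8% of genes that test called. Gabarapl2, also called Gate-16, stood at 61.9, 71.8, 75.5 and 81.6 CPM in control libraries. It stood at 76.1, 90.4, 88.5 and 93.0 CPM in ketogenic libraries. Ketogenic replicate 1 was within the control range and the 3 others were above it. The log2 change was 0.26 ± 0.08 (SE, edgeR adjusted p = 0.0641), and the adjusted p was 0.0277 with DESeq2, 0.0204 without control replicate 4 and 0.0426 without ketogenic replicate 1. Leaving out these libraries gave 12.7% and 3.91% of all tested genes past the threshold. Some of its reads may be shared with near-identical copies, since 12.2% of the 50-base stretches of its transcripts also occur in transcripts of other genes.

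Gabarap itself, named after its values were seen, stood at 231, 210.1, 229 and 216 CPM with the normal diet and 199, 201, 195 and 198 CPM with the ketogenic diet. Every ketogenic library was below every control library. The log2 change was -0.16 ± 0.05 (edgeR adjusted p = 0.0673), and the adjusted p was 0.0224 with DESeq2 and 0.0477 without control replicate 4. DESeq2 called 12.8% of all genes and the fit without control replicate 4 called 12.7%. No other single removal gave a call for Gabarap (adjusted p of up to 0.183). Of the family's summed FPKM, Gabarap took 22.5% ± 0.83 in control and 20.0% ± 0.62 in ketogenic libraries (SD, n = 4), with no overlap. Gabarapl2 took 7.24% to 9.43% in control and 9.05% to 10.8% in ketogenic libraries, with overlap. These shares were not tested. Gabarapl1, the most abundant member and a gene known for high levels in brain, took 45.4% to 47.4% in all 8 libraries, and its log2 change was 0.04 (95% interval -0.06 to 0.14). Of its 50-base stretches 23.1% also occur in another annotated gene, 1700101I11Rik, which overlaps it on the other strand. Map1lc3a and Map1lc3b, which encode the LC3 proteins used as autophagosome markers, gave log2 values of 0.12 and -0.09 (adjusted p = 0.235 and 0.299). The Map1lc3b groups did not overlap, although 3 of the 4 ketogenic libraries, at 213.4 to 214.3 CPM, were just below the lowest control library at 214.4 CPM.

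**Figure D5:**
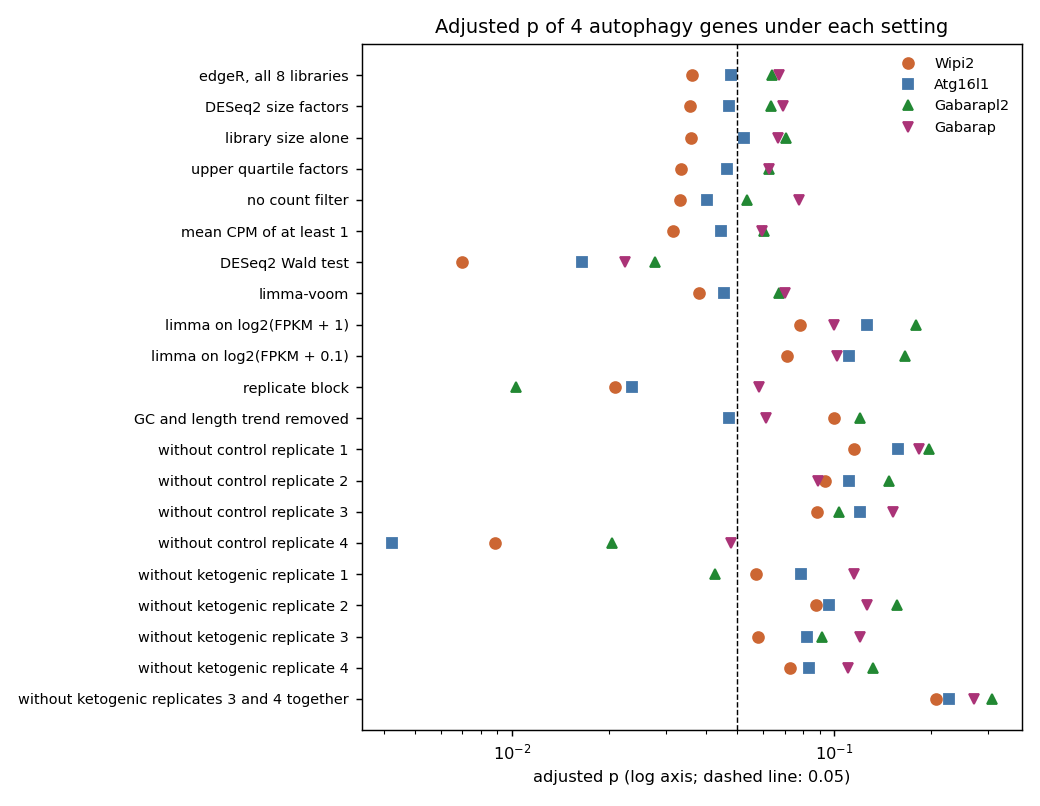
Adjusted p (log axis, dashed line at 0.05) of Wipi2, Atg16l1, Gabarapl2 and Gabarap under each setting. Wipi2 and Atg16l1 lie left of the line in edgeR's test of all 8 libraries and right of it without any single library other than control replicate 4.

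Cargo receptors link ubiquitin-tagged proteins or other cargo to the Atg8 proteins, and 0 of 5 passed with any tool run on all 8 libraries. At an unadjusted p under 0.05, which 24.6% of all tested genes had in either direction, Sqstm1 was higher and none was lower. Sqstm1, which encodes p62, stood at 451, 495, 510.2 and 537.5 CPM in control libraries. It stood at 533, 578, 565 and 547 CPM in ketogenic libraries. Control replicate 4 was above ketogenic replicate 1, so the groups overlapped. Sqstm1 had a log2 change of 0.16 ± 0.06 (edgeR adjusted p = 0.105), and 0.20 without control replicate 4 (adjusted p = 0.035). That removal called 12.7% of all tested genes, and no other single removal gave a call for Sqstm1 (adjusted p of up to 0.287). The Sqstm1 locus overlaps the coding gene Mrnip on the other strand. The counting's use of strand is not given in the sources used here, so whether reads were separated where the pair overlaps is not known. The other 4 receptor genes had negative values. Nbr1, a relative of Sqstm1, had a log2 change of -0.05, Optn, a receptor for mitochondria and bacteria, -0.15, Tax1bp1 -0.10 and Calcoco1 -0.05 (adjusted p of 0.234 to 0.669). The Tax1bp1 groups did not overlap, at 185 to 201 CPM with the normal diet and 177 to 183 CPM with the ketogenic diet.

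The 3 mitophagy receptors sit in the outer mitochondrial membrane and draw autophagosomes to mitochondria. All 3 had negative values, and 0 passed with edgeR's test of diet alone, DESeq2 or limma, while 2 were lower at an unadjusted p under 0.05, which 24.6% of all tested genes had in either direction. Bnip3l, also called Nix, stood at 148, 138, 144 and 128 CPM with the normal diet and 135, 113, 125 and 122 CPM with the ketogenic diet. Control replicate 4 lay within the ketogenic range. Bnip3l had a log2 change of -0.17 ± 0.06 (edgeR adjusted p = 0.103), and -0.21 without control replicate 4 (adjusted p = 0.0379). That removal called 12.7% of all tested genes, and no other single removal gave a call for Bnip3l (adjusted p of up to 0.276). After removal of the GC and length trend Bnip3l was at -0.07 (adjusted p = 0.616), Bnip3 also at -0.07 and Fundc1 at 0.04. Bnip3, a hypoxia-induced relative, and Fundc1 gave log2 values of -0.13 and -0.10 (adjusted p = 0.183 and 0.427). Of the transcripts' 50-base stretches, 47.2% in Bnip3 and 20.8% in Bnip3l also occur in other annotated genes, among them Bnip3l-ps, so their counts are uncertain. Bnip3 took 65.5% to 67.6% of the pair's summed FPKM in all 8 libraries.

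Tfeb and Epg5, which act in transcription and in fusion with the lysosome, did not pass (0 of 2, also at an unadjusted p under 0.05 and with DESeq2 or limma). Tfeb stood at 5.53, 5.67, 6.69 and 6.65 CPM in control libraries and 7.38, 6.87, 6.90 and 6.64 CPM in ketogenic libraries. Ketogenic replicate 4 lay just under the highest control values. Tfeb had a log2 change of 0.18 ± 0.13 (edgeR adjusted p = 0.428), with an interval of -0.09 to 0.45 that allows changes of either sign. Epg5, a tether for autophagosomes and lysosomes, had a log2 change of 0.07, and its control libraries were spread widely, from 52.2 to 68.8 CPM.

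Across the 41 genes the change moved with base composition. The correlation of the log2 change with the GC content of the longest annotated transcript was 0.41 (Pearson) and 0.46 (Spearman) over the 41 genes, which share their libraries and are not replicates. Over the 14614 tested genes with a known GC content it was 0.23 and 0.29. Of the 21 members with the lower GC content (38.8% to 50.4%) 8 had a positive and 13 a negative value, and of the 20 with the higher (50.7% to 63.2%) 14 were positive and 6 negative. With each library's trend on GC content and length removed, 1 member passed, Atg16l1, along with 1.98% of all tested genes. The sign of 7 members turned, all of them uncalled: Ulk1, Rb1cc1, Becn1, Atg3, Atg4c, Tax1bp1 and Fundc1.

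The wider pathway was covered by a second list. Of its 45 genes, all tested, 5 were higher, 1 was lower and 39 did not pass, or 13.3% against 6.52% of all tested genes. Their median log2 change was -0.01. The difference between the lists was not tested. Tecpr1, which tethers autophagosomes to lysosomes, stood at 83.8, 87.3, 89.0 and 96.1 CPM with the normal diet and 104, 106, 116 and 103 CPM with the ketogenic diet (log2 change 0.27 ± 0.06, edgeR adjusted p = 0.0194). Pink1, the kinase that flags damaged mitochondria for removal, stood at 339.7, 347, 392 and 354 CPM with the normal diet and 427, 399.9, 419 and 425 CPM in ketogenic libraries (0.22 ± 0.05, adjusted p = 0.0297). Sh3glb1, a membrane-curving partner of Uvrag and Beclin 1, stood at 127, 119, 119 and 103 CPM with the normal diet and 103, 90.9, 97.8 and 87.9 CPM in ketogenic libraries (-0.30 ± 0.07, adjusted p = 0.0212). The groups did not overlap in any gene of this list past the threshold. For Sh3glb1 the margin was narrow, at 103.1 CPM in control replicate 4 and 102.9 CPM in ketogenic replicate 1. Of all 45 genes 11 had no overlap, or 24.4%, against 13.7% of all tested genes.

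The 3 other genes past the threshold were higher in ketogenic brains. Atg16l2, a paralog of Atg16l1 at 6.14 ± 0.62 CPM with the normal diet and 8.83 ± 0.98 CPM in ketogenic libraries (SD, n = 4), had a log2 change of 0.52 ± 0.13 (edgeR adjusted p = 0.0304). Zfyve1, which marks the membrane sites where autophagosomes form, had 0.27 ± 0.07 (adjusted p = 0.0378), and Trim28, a transcriptional corepressor, 0.21 ± 0.05 (adjusted p = 0.0248). After removal of the GC and length trend 1 of the 6 passed, Atg16l2 (adjusted p = 0.0459). Without 1 library the calls among the 45 ran from 0 to 6 higher and from 0 to 6 lower. None was left, higher or lower, when control replicate 1 or 2 or ketogenic replicate 2 was the library taken out.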

How the data were processed

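Messenger RNA of whole brain was sequenced for 8 libraries, 4 per diet, from 1.3 ug of total RNA each with a SMARTer kit, per the labels' protocols. The authors deposited raw counts per gene symbol and FPKM values for the same libraries. The deposited FPKM equal the count divided by 1 length per gene and the column total. The builds recorded by the submitters' processing notes are GRCm38 and mm10. Not given in the sources used here were the aligner, counter, strand setting and annotation.

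The counts were fitted with edgeR 4.0.16 (TMM factors, filterByExpr, quasi-likelihood F test, intercept and diet), which kept 14895 genes. Benjamini-Hochberg adjustment ran over all of them, with a threshold of 0.05. The SE is the size of the log2 change divided by the square root of F, and intervals use edgeR's degrees of freedom. CPM are scaled by TMM. Alternatives used DESeq2 1.42.0 and limma 3.58.1, other scalings and filters, a replicate block, removal of a loess trend (span 0.3) on GC content and length, and libraries left out. Replicates of a group differed by more than sampling noise (chi-square per degree of freedom of 9.67 to 23.4). Coordinates and transcripts are from GENCODE M21, promoters from RefSeq GRCm38.p6. The rule for values in full took each member past the threshold and otherwise the member with the smallest p of each role, and other autophagy genes past the threshold. The members and lists were chosen with earlier results of these data known.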

Additional observations from a re-analysis of the deposited data

Results flagged for a closer look

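In 82 groups of 4 libraries (41 genes in each diet), 5 held a library whose gap to the nearest of the others, as a share of the group's range, was above Dixon's 95% critical value for 4 samples. Chance flags about 1 in 20 groups. Control replicate 4 was high in Ambra1 (81.5 CPM, the others 71.8 to 73.2) and in Atg4b (70.1 CPM, the others 54.2 to 55.6). Ketogenic replicate 3 was high in Atg4c (56 CPM, the others 44.4 to 45.9). Ketogenic replicate 2 was low in Map1lc3b (196 CPM, the others 213 to 214). Ketogenic replicate 4 was low in Tax1bp1 (177 CPM, the others 182 to 183). None of these 5 genes passed the diet comparison with all 8 libraries.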

How the results depend on the processing

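With 1 library left out, genes past the threshold ran from 146 to 1900 (971 with all), members higher from 0 to 5 and lower from 0 to 3, and the other autophagy genes from 0 to 6 in either direction. The highest counts of members came without control replicate 4. Without ketogenic replicates 3 and 4 together 90 genes passed, with 0 members higher and 0 other autophagy genes higher or lower. With limma on log2(FPKM + 1) 64 passed and on log2(FPKM + 0.1) 88, with 0 members and 0 other autophagy genes in both. The DESeq2 Wald test called 1719 genes (12.8%), 3 members higher and 1 lower, and 6 other autophagy genes higher and 6 lower. With library size alone as the scaling 1002 genes passed (6.73%), and 1 member was higher, Wipi2. After removal of the GC and length trend 295 passed, with 1 member higher, 1 other autophagy gene higher and 0 lower. The causes were not tested. The members' median log2 change ran from 0.01 to 0.05 with 1 library left out. With the replicate block 1528 genes passed (10.3%). Among the members Wipi2, Atg16l1 and Gabarapl2 were then higher and Bnip3l lower. Whether the replicate numbers pair the libraries was not settled. Same-numbered libraries deviated together with small positive correlations of 0.02 to 0.08. Control replicates 3 and 4 correlated best with the ketogenic library of their own number, and control replicates 1 and 2 did not. Upper quartile factors, DESeq2 size factors, limma-voom and both other filters kept every call and sign among the 41 genes.

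Signs turned only in members with an adjusted p of 0.15 or more. After removal of the GC and length trend the log2 change was -0.0294 in Ulk1, 0.00251 in Rb1cc1, 0.0374 in Becn1, 0.0822 in Atg3, 0.0103 in Atg4c, 0.0367 in Tax1bp1 and 0.0406 in Fundc1. Atg3 was at 0.00178 with library size alone, and at 0.00172 and 0.00178 with limma on log2(FPKM + 1) and log2(FPKM + 0.1). With 1 library left out, the log2 change ran from -0.0367 to 0.0232 in Atg3, from -0.0267 to 0.0578 in Atg14, from -0.0104 to 0.0602 in Ulk1, from -0.0424 to 0.0145 in Atg13 and from -0.046 to 0.00496 in Becn1. Ulk1 was at -0.0148 without ketogenic replicates 3 and 4 together. Depth was at least 109 counts per member and library.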
